A study of Mus musculus with 9 samples.

Results

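Mouse zinc finger genes whose symbol is Zfp followed by 3 digits were followed through the prefrontal cortex of wild-type and Shank3 mutant mice. The members were chosen by symbol alone, as the rows of the deposited table that fit this pattern with 1 symbol left out, and 269 of the 14444 genes of the table belonged. The symbol pattern uses no measured value, but the family was picked with earlier results of these data known. Most of these genes encode C2H2 zinc finger proteins, in which each finger is a short fold held by a zinc ion between 2 cysteines and 2 histidines, and arrays of fingers read DNA or RNA sequence. Many carry a KRAB domain at the front of the protein, which binds the corepressor TRIM28. TRIM28 in turn brings in SETDB1, a methyltransferase of lysine 9 of histone H3 (H3K9), and heterochromatin proteins, and this route is best known for silencing retroelements and keeping imprinted regions marked. Other members have no KRAB domain and serve as developmental factors, as subunits of corepressor complexes or as RNA-binding proteins.

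Total RNA of prefrontal cortex, depleted of ribosomal RNA, was sequenced from mice aged 5 to 8 postnatal weeks, in 3 groups of 3 libraries. Wild-type mice received saline, and Shank3 mutants received either saline (called saline mutants here) or UNC0642. Shank3 encodes a scaffold protein of excitatory synapses, and the labels give the mutant genotype without its allele. UNC0642 inhibits EHMT1 and EHMT2, the enzymes that place mono- and dimethyl marks on H3K9, and was injected intraperitoneally at 1 mg/kg once a day for 3 days. The labels do not state that replicate libraries are separate animals, and p-values here reflect only library-to-library spread, which can be technical. In bulk tissue, fewer cells of a type and less RNA per cell cannot be told apart.

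The deposited values are not plain read counts scaled to the library. In each gene, log2 values were averaged over wild type and UNC0642 replicates 2 and 3 (5 libraries). This mean matched that over saline mutants and UNC0642 replicate 1 (4 libraries) to within 2.5e-09. Differences between saline mutants and wild type are therefore compressed on that scale. Whole reads could be recovered behind the values of 14444 of 14444 genes, between 12035098 and 16165483 per library, and both scales are given below. Deposited differences that involve UNC0642 can be smaller than the recovered ones, larger or of opposite sign. Between UNC0642 and saline mutants, deposited and recovered log2 differences were -0.04 and -0.17 for Ehmt2, -0.38 and -0.25 for Olig2, and -0.27 and 0.17 for Sox10. In the recovered reads 1 axis held 52.1% of the variance and divided the libraries in a way the labels do not give: the wild-type libraries and UNC0642 replicate 3 lay on 1 side, and the saline mutants with UNC0642 replicates 1 and 2 on the other. UNC0642 replicate 3 thus stood apart from its group, and results are given with and without it. The deposited adjustment placed UNC0642 replicate 2 with the wild-type libraries, whereas its recovered reads lay with the saline mutants. Whether a library label or a batch assignment was crossed cannot be told from the sources used here, and every UNC0642 value below carries that doubt. In 12 genes all saline mutant libraries lay 8-fold or more from all wild-type ones; UNC0642 replicate 3 was nearer wild type in 12 of them, and none was a member. Shank3 itself ran at 301, 308 and 348 RPM (recovered reads for each 1000000 of the library's scaled size) in wild type, 339, 350 and 324 in saline mutants and 294, 296 and 316 under UNC0642; a count over the whole gene does not check an unnamed allele.

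The members were a varied family by protein. A gene of the reference annotation was matched for 268 of them, of which 266 were protein coding and 2, Zfp783 and Zfp939, were transcribed pseudogenes. A KRAB A box was matched in 131 of the 266 coding members (49.2%), and a SCAN domain, which pairs such proteins with each other, in 11, of which 4 had both. The number of C2H2 fingers counted ran from 0 to 36, the highest in Zfp142, with a median of 10. Members with a KRAB match had a median of 11 fingers and the others 8. The pattern found no finger in 7 members, among them Zfp365, Zfp503 and Zfp703. Chromosome 7 held 70 members, chromosome 17 28, chromosome 13 25 and chromosome 8 21. Runs of at least 5 members with at most 3 other coding genes between neighbours numbered 10 and took in 74 members. Such neighbours are often recent copies of each other, and how reads fitting several copies were counted is not given in the sources used here, so values of near-identical copies are uncertain.

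As transcripts these genes were scarce. The mean over 9 libraries ran from 0.845 to 916 RPM, with quartiles of 6.81, 14.1 and 27.3, where the median of all genes was 25.4. Together the 269 members took 0.703% of all reads. Fewer than 5 RPM were found for 54 members and more than 100 for 10. No member had a library at 0 reads, and the lowest count was 4 reads. All 14444 genes, members included, reached at least 1 RPM in at least 3 libraries. The lower end of these levels is therefore bounded by which genes the deposited values cover. Genes of this symbol pattern without a deposited value are not described. Per kilobase of exon, the scale on which genes are compared, the median of 268 members was 3.18 RPM, against 5.59 over all genes with a length. Replicates spread about as widely as those of other genes: the median coefficient of variation of members was 9.77% in wild type, 8.76% in saline mutants and 10.9% under UNC0642, against 10.2%, 8.15% and 11.5% over all genes.

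Zfp365 stood far above the rest at 176 RPM per kilobase. Its protein, a coiled-coil partner of DISC1 known from neurons, carries no finger that the pattern found. In RPM Zfp365 measured 934, 947 and 901 in wild type, 927, 912 and 909 in saline mutants and 893, 847 and 970 under UNC0642, and the groups overlapped. Next came Zfp706 at 43.3 RPM per kilobase, a small single-finger protein known from stem cell differentiation, whose 9 libraries stayed between 210 and 220 RPM. Zfp106, an RNA-binding protein needed by motor neurons, followed at 32.2 and Zfp428 at 24.3 on the per-kilobase scale. Zfp445, which keeps imprinted regions methylated, was the highest member with a KRAB match at 23.4. Then came Zfp771 at 17.8, Zfp869 at 15.8, Zfp651 at 15.6, Zfp180 at 15.4 and Zfp692 at 14.7. The ranges of these last 5 overlapped over libraries, so that their order is not resolved. At the other end lay Zfp618 at 0.102, Zfp473 at 0.105, Zfp541 at 0.173, Zfp964 at 0.185 and Zfp808 at 0.237 RPM per kilobase.

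**Figure D1:**
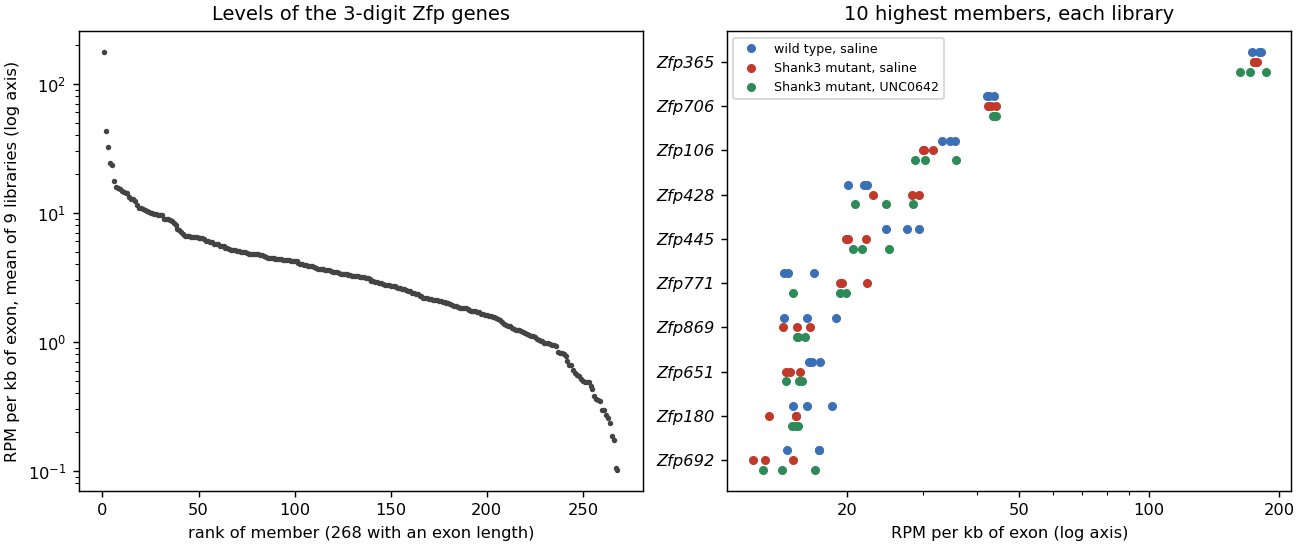
Levels of the members in recovered RPM per kilobase of exon, on log axes. The left panel ranks the mean over 9 libraries of the 268 members with an exon length, and the right panel shows each library of the 10 highest members, coloured by group; Zfp365 lies at 176 and the next member, Zfp706, at 43.3.

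Between saline mutants and wild type, the deposited values gave no called member. Limma with an intensity trend on log2(value + 0.5), adjusted over all genes by the Benjamini-Hochberg method with a call at adjusted p under 0.05, called 0 of 269 members and 0 of 14444 genes (0.0%). At an unadjusted p under 0.05 the same fit held 0 members and 19 genes (0.132%). The median log2 difference of the members was -0.0078, with 152 of 269 below 0, where 48.7% of all genes lay below 0. The recovered reads gave another picture. Limma-voom called 29 of 269 members (10.8%), 9 higher and 20 lower in saline mutants, against 12.4% of all genes, 5.71% higher and 6.71% lower. The share of members called was thus near that of all genes. The median member lay at -0.067 on the log2 scale with 162 of 269 below 0, against 49.6% of all genes below 0.

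With the side of the division as a term (the division fit below), limma-voom called 0 members and 0 of all genes (0.0%), with 10 members at an unadjusted p under 0.05 (4.91% of all genes), and the median member lay at -0.023. The calls were lost. Of the 29 members 28 kept their sign. At least 75% of the log2 difference was left in 10, 50 to 75% in 5 and less, with the same sign, in 13. The median share left was 52%. These members were chosen by their difference in the same libraries, so the kept signs are no independent support. Their median standard error rose from 0.15 to 0.22 on the log2 scale, and 5 of the 29 had an unadjusted p under 0.05 in that limma-voom fit. Zfp941 went from 0.59 to 0.48, Zfp810 from 0.66 to 0.53, Zfp688 from 0.98 to 0.75, Zfp276 from -0.60 to -0.52 and Zfp418 from -0.89 to -1.01. Zfp141, Zfp462, Zfp607, Zfp511, Zfp771 and Zfp871 were left with differences between -0.10 and 0.04. Single libraries were left out in limma-voom without the division term. Without UNC0642 replicate 3 that fit called 52 members (19.3%), 18 higher and 34 lower, against 25.1% of all genes, 12.2% higher and 12.8% lower. Leaving out wild-type replicate 2, saline mutant replicate 1 or saline mutant replicate 3 left 0 members called in it. It called 5 without wild-type replicate 3 and 9 without saline mutant replicate 2. All wild-type libraries lie on 1 side of the division and all saline mutants on the other. The division fit therefore separates genotype from division through UNC0642 replicate 3 alone, the only mutant library on the wild-type side. The division was itself read from these libraries.

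**Figure D2:**
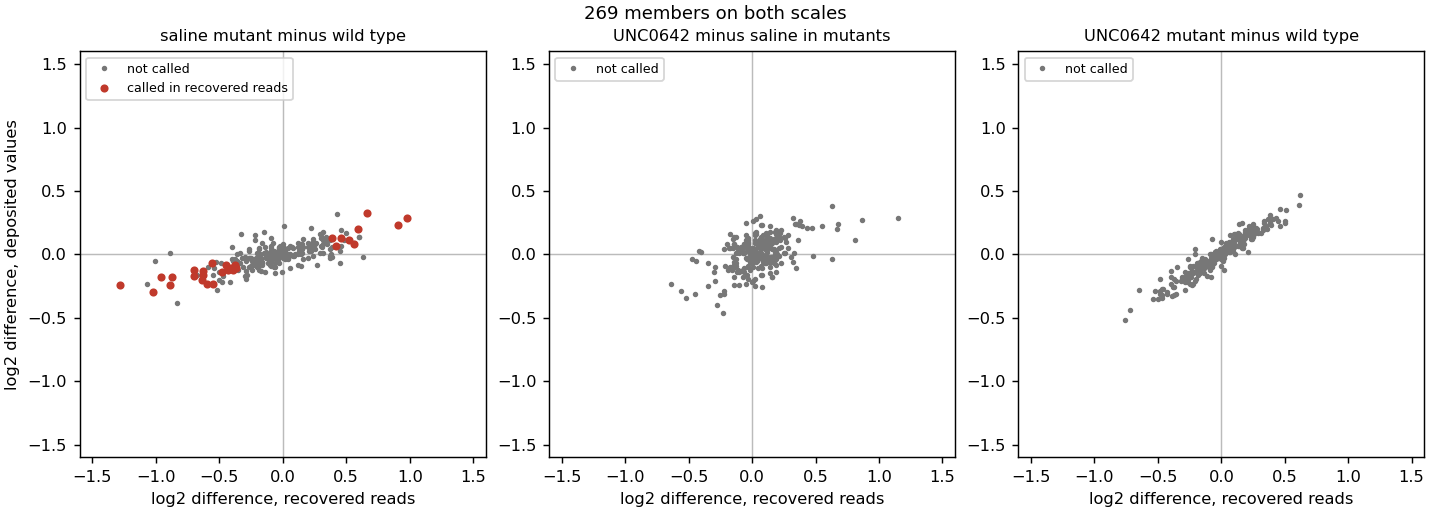
Log2 differences of the 269 members between groups, from recovered reads (horizontal, limma-voom) and from deposited values (vertical, limma), 1 panel for each comparison. Red points are the 29 members called from recovered reads between saline mutants and wild type; deposited differences of the same members are smaller, and no member was called in the other comparisons.

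Promoters are shown for 4 members because their wild-type and saline mutant libraries lie far apart and they include both directions; among the members with an entry in the promoter table they have the widest gaps. The sequences come from RefSeq on GRCm38.p6 and run 5′ to 3′ on the gene's strand, from 250 bases before the start to 50 after it. Capitals mark matches, on either strand, to a CCAAT box (CCAAT), a GC box (GGGCGG), an ETS site (CCGGAAG), a cyclic AMP response element (TGACGTCA), a YY1 site (AAGATGGCG) or a TATA box (TATAAA).
Zfp688, chr7:127421985-127422284, minus strand: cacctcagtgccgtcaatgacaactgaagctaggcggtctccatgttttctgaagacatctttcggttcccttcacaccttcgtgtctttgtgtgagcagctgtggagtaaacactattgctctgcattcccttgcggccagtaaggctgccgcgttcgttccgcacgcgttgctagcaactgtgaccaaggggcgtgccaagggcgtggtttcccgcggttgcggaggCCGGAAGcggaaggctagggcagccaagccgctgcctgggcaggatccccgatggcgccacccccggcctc
Zfp810, chr9:22307589-22307888, minus strand: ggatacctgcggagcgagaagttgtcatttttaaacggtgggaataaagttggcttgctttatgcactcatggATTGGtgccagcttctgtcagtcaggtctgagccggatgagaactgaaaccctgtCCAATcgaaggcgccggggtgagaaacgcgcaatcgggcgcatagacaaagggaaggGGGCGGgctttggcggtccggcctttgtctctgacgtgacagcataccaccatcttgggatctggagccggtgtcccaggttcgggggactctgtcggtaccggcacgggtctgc
Zfp595, chr13:67332511-67332810, minus strand: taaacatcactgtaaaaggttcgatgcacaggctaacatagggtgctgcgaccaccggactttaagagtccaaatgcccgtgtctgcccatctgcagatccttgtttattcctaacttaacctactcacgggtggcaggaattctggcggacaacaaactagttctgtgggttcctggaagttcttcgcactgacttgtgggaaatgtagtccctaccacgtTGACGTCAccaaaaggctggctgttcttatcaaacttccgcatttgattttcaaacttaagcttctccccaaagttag
Zfp141, chr7:42505704-42506003, minus strand: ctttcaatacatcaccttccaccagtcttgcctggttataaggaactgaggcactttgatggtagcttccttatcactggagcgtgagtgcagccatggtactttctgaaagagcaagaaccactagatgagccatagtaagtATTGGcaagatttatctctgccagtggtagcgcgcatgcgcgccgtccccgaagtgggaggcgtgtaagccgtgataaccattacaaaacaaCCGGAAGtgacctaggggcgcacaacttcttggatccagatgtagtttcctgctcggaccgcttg
The 2 members that were higher in saline mutants, Zfp688 and Zfp810, had 22 and 20 CpG pairs in this window, and the 2 that were lower, Zfp595 and Zfp141, had 10 and 13. A promoter sequence was at hand for 221 members, with a median of 16 CpG pairs, against 20 over 10931 genes of the table. The CCAAT box was matched in 48.0% of the members' promoters, against 38.2% of those 10931 genes and 37.9% of all 27025 promoters of this length. Among members with a KRAB match the share was 54.2% of 118. The GC box was matched in 48.4% of members, below the 63.6% of the table's genes but above the 35.9% of all promoters. An ETS site was matched in 19.5% of members, against 16.6% of the table's genes and 9.12% of all promoters. For a TATA box these shares were 6.79%, 6.96% and 14.2%. These shares and CpG counts are descriptions of letters in a window and carry no test. The printed members were picked by gap and direction, and a link of CpG count with direction was not tested.

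Zfp688 was the member with the widest gap between wild type and saline mutants. It is a KRAB member with 2 fingers counted. Its recovered RPM were 4.75, 5.11 and 3.68 in wild type, 8.91, 9.18 and 8.46 in saline mutants and 6.30, 7.07 and 5.75 under UNC0642. Every saline mutant library lay above every wild-type library, and the UNC0642 libraries lay between them. The log2 difference of saline mutants from wild type was 0.98 (SE 0.19; limma-voom adjusted p = 0.017). It was 0.75 in the division fit (SE 0.32; limma-voom adjusted p = 0.97), and on the deposited scale 0.29 (SE 0.19; limma adjusted p = 1.0).

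Zfp141, with a KRAB match and 10 fingers, shows the division plainly. It measured 19.8, 19.4 and 19.2 RPM in wild type and 12.8, 11.7 and 11.6 in saline mutants. Under UNC0642 the values were 11.9, 10.7 and 18.7, so replicates 1 and 2 lay with the saline mutants and replicate 3 near wild type. The log2 difference between saline mutants and wild type was -0.70 (SE 0.18; limma-voom adjusted p = 0.028). The division fit gave 0.04 (SE 0.20), the one called member to change sign.

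Zfp595, a KRAB member with 18 fingers, was lower in the saline mutants. It measured 3.39, 3.53 and 4.15 RPM in wild type, 2.01, 1.45 and 2.05 in saline mutants and 3.27, 2.40 and 3.14 under UNC0642, on counts of 22 to 53 reads a library. All UNC0642 libraries lay above the saline mutants and below wild type. The log2 difference between saline mutants and wild type was -1.02 (SE 0.27; limma-voom adjusted p = 0.032), and -0.83 (SE 0.46) in the division fit.

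Zfp810, a KRAB member with 10 fingers, was higher in every mutant library. It measured 10.2, 10.4 and 9.70 RPM in wild type, 14.3, 17.1 and 16.5 in saline mutants and 13.3, 18.4 and 14.6 under UNC0642. Both mutant groups lay clear of wild type and overlapped each other, UNC0642 replicate 3 included. The log2 difference was 0.66 (SE 0.16; limma-voom adjusted p = 0.023) for saline mutants and 0.62 (SE 0.16; limma-voom adjusted p = 0.12) for UNC0642-treated mutants against wild type. The first of these was 0.53 in the division fit (SE 0.25; limma-voom adjusted p = 0.97). On the deposited scale Zfp810 also had the smallest p of all members in both comparisons, at 0.33 (SE 0.16; limma adjusted p = 1.0) and 0.47 (SE 0.16; limma adjusted p = 0.58).

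Zfp462 bears on the enzymes that UNC0642 inhibits, since its protein, with 33 fingers counted, is known to bring EHMT1 and EHMT2 to enhancers in embryonic stem cells. Its RPM were 54.1, 59.0 and 58.0 in wild type, 35.2, 35.3 and 39.8 in saline mutants and 34.9, 36.6 and 53.1 under UNC0642. Wild type lay above every saline mutant, and UNC0642 replicate 3 was again alone near wild type. The log2 difference of saline mutants from wild type was -0.63 (SE 0.13; limma-voom adjusted p = 0.019), -0.07 (SE 0.15) in the division fit, and -0.13 on the deposited scale (SE 0.12; limma adjusted p = 1.0).

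Of the other members with a wide gap, Zfp950, a KRAB member of chromosome 19 with 17 fingers, was the most abundant in RPM. It fell from 68.4 ± 12.9 (SD, n = 3) in wild type to 37.0 ± 3.98 in saline mutants, with 39.4, 43.2 and 61.2 under UNC0642. Zfp366, a factor known from dendritic cells, had the largest fitted fall, -1.28 on the log2 scale (SE 0.33; limma-voom adjusted p = 0.031). Its counts were low, at 31 to 54 reads in wild type and 16 to 24 in saline mutants. Zfp607 measured 4.07, 5.11 and 6.81 RPM in wild type and 2.65, 2.64 and 2.75 in saline mutants. Zfp626, with a KRAB match and 17 fingers, was lower in every saline mutant library, at 8.11 to 9.59 against 12.8 to 16.3, and missed the call (limma-voom adjusted p = 0.055). Zfp541 had only 5 to 9 reads in saline mutants and 11 to 14 in wild type and was not called.

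**Figure D3:**
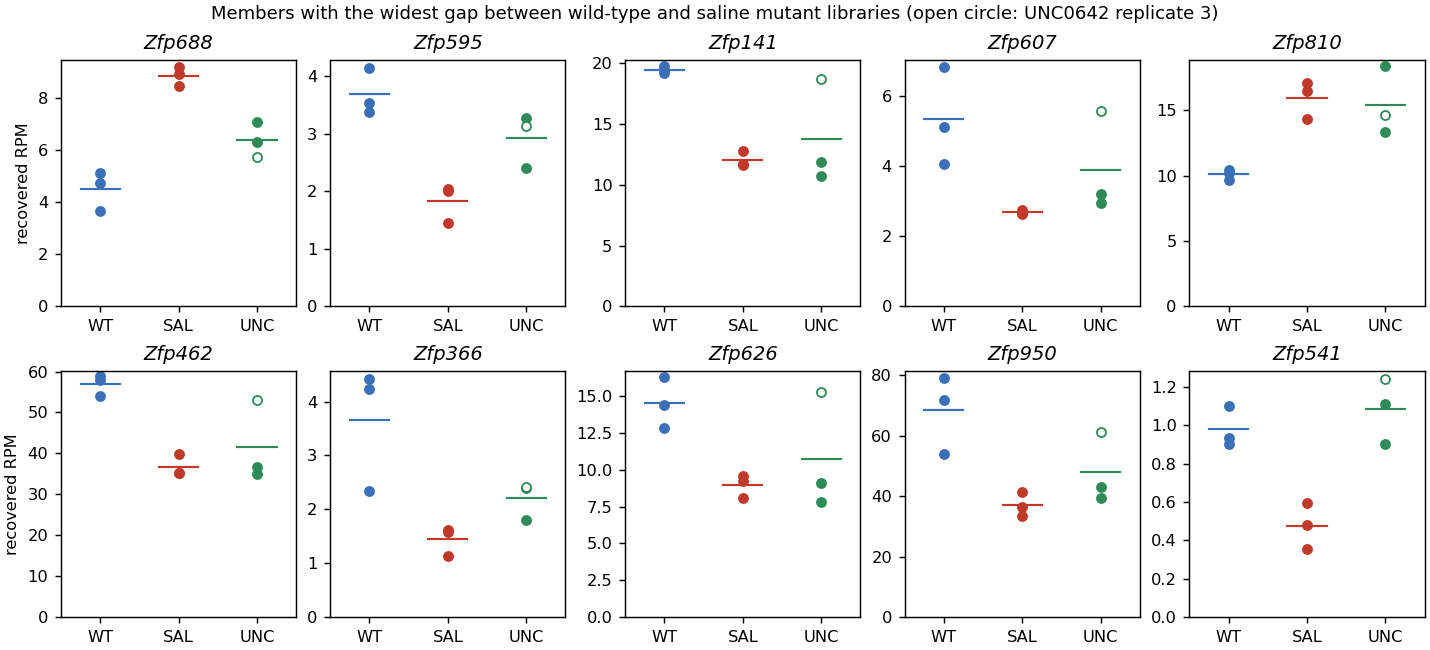
Recovered RPM in each library for the 10 members with the widest gap between wild-type (WT) and saline mutant (SAL) libraries; UNC marks UNC0642-treated mutants, short lines are group means of 3 libraries, and each vertical axis starts at 0. The open circle is UNC0642 replicate 3, which for Zfp141, Zfp607, Zfp462, Zfp626 and Zfp950 lies nearer wild type while the other 2 treated libraries lie nearer the saline mutants.

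The remaining called members fell into moderate changes. Lower in saline mutants were Zfp418, Zfp933, Zfp397, Zfp944, Zfp276, Zfp760, Zfp800, Zfp329, Zfp398, Zfp592, Zfp871, Zfp445, Zfp609 and Zfp638, with log2 differences from -0.89 to -0.37. Higher were Zfp459 at 0.91, Zfp941 at 0.59, Zfp580 at 0.56, Zfp511 at 0.52, Zfp316 at 0.46, Zfp771 at 0.42 and Zfp239 at 0.39. In limma-voom the adjusted p of the 29 ran from 0.017 to 0.049. UNC0642 replicate 3 was nearer the wild-type mean for 23 of the 29, replicate 1 for 4 and replicate 2 for 5. In 6 of the 29, no treated library was nearer wild type: Zfp239, Zfp276, Zfp316, Zfp800, Zfp810 and Zfp941. Zfp276 shares its locus with Fanca, which is transcribed toward it, and with the strand setting of the counting not given their reads cannot be told apart.

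**Figure D4:**
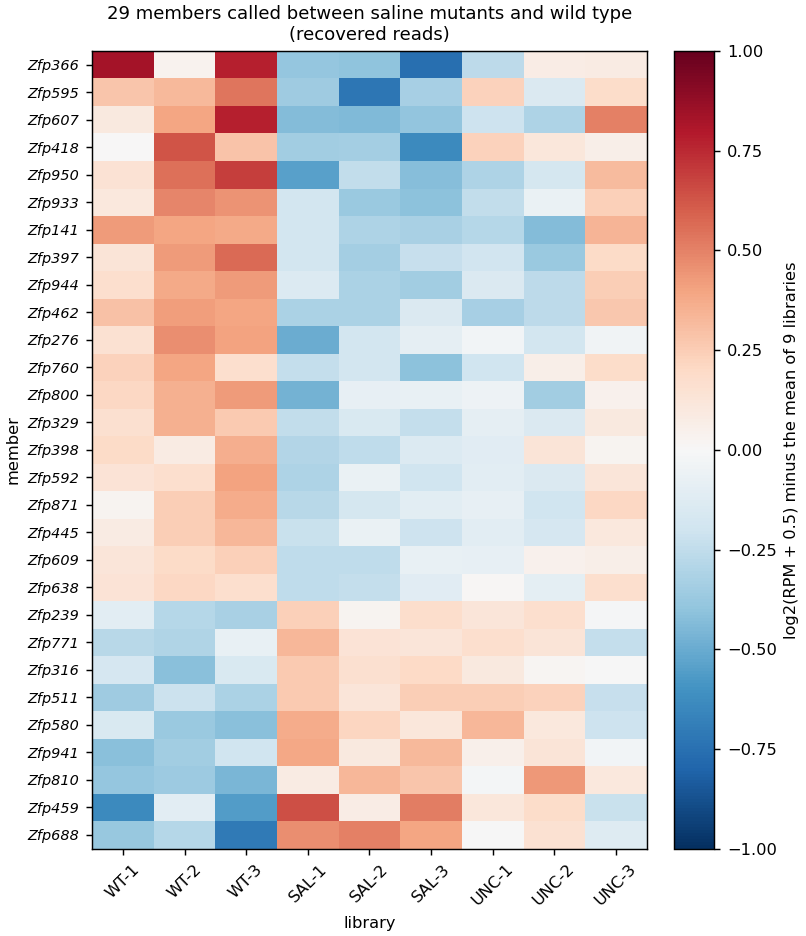
The 29 members called between saline mutants and wild type from recovered reads, by library (WT wild type, SAL saline mutant, UNC UNC0642-treated mutant). Colour gives log2(RPM + 0.5) minus the mean of the 9 libraries, and rows run from the largest fall to the largest rise; UNC-3 is nearer the wild-type mean in 23 members.

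Counted without a model, wild-type and saline mutant libraries did not overlap for 108 members (40.1%), 43 higher and 65 lower in saline mutants, against 40.6% of all genes, 20.8% higher and 19.8% lower. UNC0642 replicate 3 was nearer wild type in 88 of these 108 (81.5%; all genes 78.5%), and it was alone in this in 55 (50.9%; all genes 59.6%). In 18 no treated library was nearer wild type (16.7%; all genes 14.3%). For 6 of the 108 all treated libraries were nearer wild type (5.56%; all genes 4.31%): Zfp395, Zfp418, Zfp541, Zfp758, Zfp839 and Zfp946. In Zfp395 the saline mutants had 10.2, 9.51 and 9.73 RPM, above wild type at 6.70, 7.37 and 6.89 and UNC0642 at 6.55, 5.96 and 7.45. Zfp839, which has no finger by the pattern, ran at 13.6, 14.8 and 14.9 in saline mutants, 10.9, 12.5 and 10.9 in wild type and 9.25, 11.1 and 11.2 under UNC0642. These comparisons share the saline mutant libraries, so their opposite directions are not independent. On the deposited scale 7 members did not overlap (2.60%; all genes 3.43%).

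UNC0642 against saline within mutants gave no called member on either scale. Limma on the deposited values called 0 of 269 members and 0 genes (0.0%), with 4 members and 281 genes (1.95%) at an unadjusted p under 0.05, and a member median of 0.0076. In recovered reads limma-voom called 0 members and 0 genes as well (0.0%), with 10 members and 539 genes (3.73%) at an unadjusted p under 0.05, and a member median of 0.047 with 167 of 269 above 0, against 49.0% of all genes. With the mutant libraries of 1 side alone, which leaves out UNC0642 replicate 3, the median was 0.030 with 153 above 0, against 50.3% of all genes. In recovered reads the groups did not overlap for 33 members (12.3%; all genes 9.84%), 25 higher under UNC0642 (9.29%; all genes 4.56%) and 8 lower (2.97%; all genes 5.28%).

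The members of smallest p in that comparison on the deposited scale were Zfp772, Zfp386, Zfp217, Zfp839, Zfp593, Zfp395, Zfp867, Zfp335, Zfp454 and Zfp937, each with a limma adjusted p of 1.0. Zfp772, a KRAB member, had RPM of 11.9, 14.3 and 10.9 in saline mutants and 7.61, 11.6 and 11.2 under UNC0642, a deposited log2 difference of -0.40 (SE 0.15). The groups overlapped, and the low treated library was replicate 1. Zfp217, a DNA-binding subunit of the CoREST and LSD1 corepressor complexes, ran at 2.73, 3.57 and 2.82 in saline mutants and 1.88, 2.70 and 3.20 under UNC0642. Its deposited difference was -0.46 (SE 0.21), and these groups overlapped too. Deposited differences between UNC0642 and saline mutants can be larger than those in recovered reads, so the values for Zfp772 and Zfp217 are not lower bounds. For Zfp395 and Zfp839 the groups did not overlap, with recovered log2 differences of -0.56 (SE 0.15; limma-voom adjusted p = 0.97) and -0.45 (SE 0.13; limma-voom adjusted p = 0.97).

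Treated mutants against wild type gave 0 called members on the deposited scale (limma, 0.0% of all genes), with 9 members and 1238 genes (8.57%) at an unadjusted p under 0.05. Limma-voom on recovered reads called 0 members and 11 genes (0.0762%), with 37 members at an unadjusted p under 0.05 (19.2% of all genes). Without UNC0642 replicate 3 limma-voom called 38 members (14.1%), 14 higher and 24 lower, against 20.5% of all genes, 9.93% higher and 10.5% lower. The members of smallest p on the deposited scale were Zfp810, Zfp462, Zfp217, Zfp330, Zfp239, Zfp397, Zfp937, Zfp575, Zfp141 and Zfp748, each with a limma adjusted p of 0.58. Zfp330, a nucleolar protein, ran at 23.1, 22.1 and 19.0 RPM in wild type and 27.8, 28.0 and 25.4 under UNC0642, with no overlap.

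By known role, the members did not move as 1 body. Of 11 measured KRAB repressors of retroelements and imprinted regions, 1 rose and 1 fell between wild type and saline mutants in limma-voom on recovered reads, with a median log2 difference of -0.09. Of all genes 12.4% were called, 5.71% higher and 6.71% lower, and 49.6% lay below 0; in lists this small, 1 or 2 called genes are near that background. The median of these repressors was -0.01 in the division fit. Zfp445 fell from 182, 204 and 217 RPM to 147, 164 and 149 (log2 -0.39, SE 0.09; adjusted p = 0.024 in limma-voom), and no libraries overlapped. Zfp316 rose from 30.5, 25.6 and 30.9 to 41.3, 38.3 and 39.4. In the division fit the log2 difference was -0.14 (SE 0.14) for Zfp445 and 0.40 (SE 0.16) for Zfp316. Zfp809, which silences murine leukaemia proviruses, gave 8.06, 9.63 and 9.31 in wild type, 7.87, 9.18 and 9.45 in saline mutants and 8.43, 7.68 and 7.58 under UNC0642. Zfp568, the repressor of a placental Igf2 promoter, had a log2 difference of 0.01 (SE 0.31) from wild type in saline mutants. Zfp708, in whose annotated protein no KRAB box was matched, had -0.09 (SE 0.26).

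Of 20 measured neural and developmental factors, listed as lacking a KRAB domain although Zfp110 and Zfp369 matched one, 2 fell and none rose, with a median of -0.17 and 16 of 20 below 0 (all genes 6.71% lower, 49.6% below 0). In the division fit the median was -0.07, with 12 of 20 below 0. The 2 called were Zfp462 and Zfp609, a partner of cohesin-loading and Integrator proteins in neural progenitors. Zfp609 measured 58.1, 61.2 and 63.2 RPM in wild type, 44.8, 44.8 and 50.7 in saline mutants and 50.5, 54.9 and 55.7 under UNC0642. Zfp521, a factor of early neural differentiation, had a difference of -0.50 (SE 0.20; limma-voom adjusted p = 0.11). Zfp335, a chromatin factor whose loss causes microcephaly, had -0.03 (SE 0.11), and the X-linked Zfp711, an intellectual disability gene, -0.07 (SE 0.13).

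Among 11 RNA-binding and nuclear-body proteins 1 fell, none rose and the median was 0.01 (-0.02 in the division fit). Zfp638, a nuclear matrix protein that silences unintegrated retroviral DNA, fell from 114, 120 and 117 to 87.1, 88.2 and 96.0 RPM, with 105, 97.0 and 117 under UNC0642 (log2 -0.37, SE 0.09; limma-voom adjusted p = 0.022). Its difference was -0.15 (SE 0.13) in the division fit. The ribosome assembly factors Zfp622 and Zfp593 had positive differences of 0.30 (SE 0.10) and 0.38 (SE 0.20) that were not called, at limma-voom adjusted p of 0.061 and 0.19. Of 11 genes listed as corepressor and chromatin complex subunits 2 fell, Zfp592 and Zfp800, and none rose. That role was not checked for each gene of the list, Zfp800 included. The list median was -0.12 with 9 of 11 below 0 (all genes 6.71% lower, 49.6% below 0). The division fit left it at -0.07, with 6 of 11 below 0. Zfp592 and its partner in 1 complex with ZMYND8, Zfp687, had differences of opposite sign, at -0.43 (SE 0.11; limma-voom adjusted p = 0.032) and 0.21 (SE 0.09; limma-voom adjusted p = 0.13). For Zfp592 the division fit gave -0.17 (SE 0.17).

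Genes outside the family but on its pathway are given for their counts. Of 22 measured genes of the KRAB corepressor machinery 1, Morc3, fell and none rose between saline mutants and wild type, with a median of -0.03. Trim28 ran at 107, 106 and 101 RPM in wild type and 107, 119 and 112 in saline mutants (limma-voom adjusted p = 0.35). The list of 15 genes around H3K9 mono- and dimethylation holds both methyltransferases and genes of demethylase families. Of these Jmjd1c, Kdm3a and Kdm7a, all of demethylase families, fell and none rose. Over all genes 6.71% were called lower and 5.71% higher. The list median was -0.18 (-0.06 in the division fit). Ehmt1 and Ehmt2 had differences of -0.13 and 0.23 at limma-voom adjusted p of 0.31 and 0.065. Zinc finger genes of other symbols, 141 in number, had a median of -0.05 with 2 higher and 5 lower, close to the 269 members at -0.07.

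The members' differences between saline mutants and wild type were also set beside protein class and transcript make-up, and the ordering seen in the recovered reads was mostly lost in the division fit. The median log2 difference of saline mutants from wild type in recovered reads was 0.03 for the 59 members with 0 to 5 fingers, -0.03 for 88 with 6 to 10, -0.09 for 77 with 11 to 15 and -0.19 for 42 with 16 or more. In the last class 31 of 42 lay below 0, and 4 were called lower and none higher (all genes 49.6% below 0, 6.71% lower, 5.71% higher). The 4 class medians in the division fit were 0.01, -0.02, -0.05 and -0.03, with 24 of 42 below 0 in the last, and on the deposited scale they were 0.00, 0.00, -0.03 and -0.04. Members with a KRAB match had a median of -0.09 with 89 of 131 below 0, and the others -0.04 with 72 of 135 below 0; in the division fit these medians were -0.03 and -0.02. Between UNC0642 and saline the order of the finger classes turned round, with medians of -0.02, 0.02, 0.07 and 0.12; on 1 side of the division alone they were 0.00, 0.01, 0.06 and 0.04. The saline mutant libraries enter both differences. The 90 members with the lowest GC content had a median of -0.20, with 74 below 0, and the 89 with the highest had 0.05. These became -0.05 in the division fit, with 52 below 0, and -0.03. The 89 members with the most exon bases had -0.16 and the 89 with the fewest 0.04, which became -0.03 and -0.04. Across 268 members the difference had a Pearson r of -0.26 with log2 exon length and 0.32 with GC content, where 13896 genes of the table gave -0.25 and 0.17. Members gave 0.01 and 0.01 in the division fit. These points share libraries and depth, and the part of length or GC content in the differences was not tested.

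**Figure D5:**
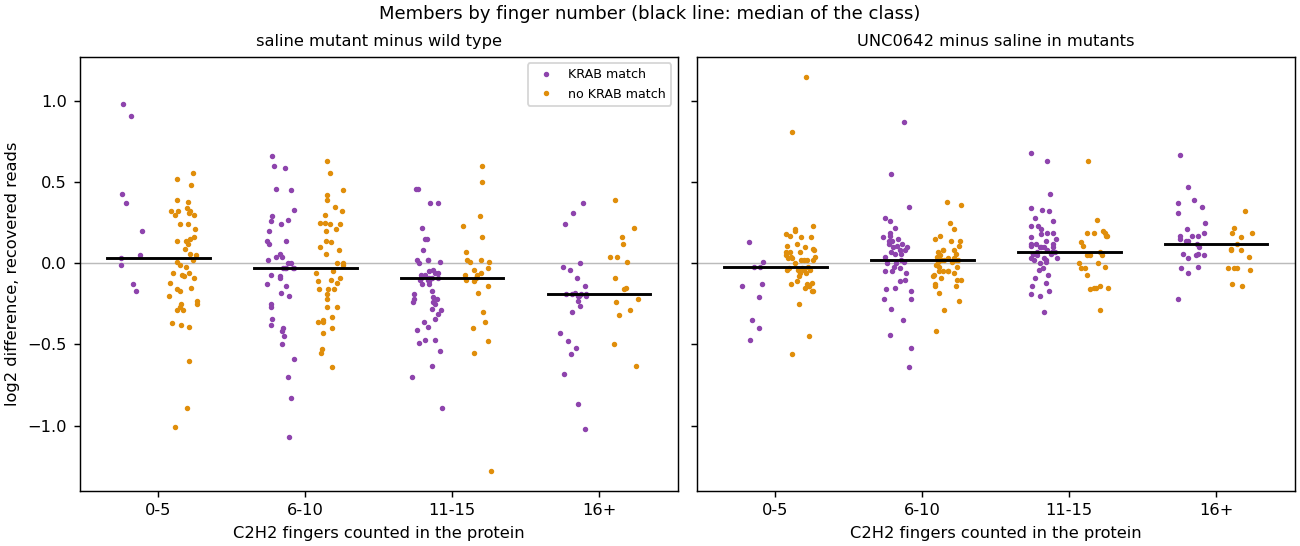
Log2 differences of the members in recovered reads by number of C2H2 fingers counted, for saline mutant minus wild type (left) and UNC0642 minus saline in mutants (right). Points are members, coloured by KRAB match and spread sideways for legibility, and black lines are class medians, from 0.03 in the class of 0 to 5 fingers to -0.19 in that of 16 or more on the left, where the division fit leaves 0.01 and -0.03.

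The 10 runs of neighbouring members are given as a description, with no test. Between saline mutants and wild type in recovered reads their medians lay between -0.27 and 0.32. The chromosome 17 run from Zfp229 and Zfp758 to Zfp948 was the lowest, with 9 of 10 members below 0 and Zfp760 and Zfp944 called lower; in the division fit its median was -0.10, with 6 of 10 below 0. The chromosome 7 run of Zfp524, Zfp579, Zfp580, Zfp784 and Zfp865 was the highest, with 5 of 5 above 0 and Zfp580 called; in the division fit its median was 0.03, with 3 of 5 above 0. A further chromosome 7 run, with Zfp688 and Zfp771, had 6 of 7 above 0 and a median of 0.29, which became 5 of 7 and 0.11. Of the other runs, 1 on chromosome 13 had 8 of 10 below 0 and 1 on chromosome 17 had 6 of 8. On chromosome 7, 1 run had 7 of 9 below 0 and another 5 of 7. A chromosome 6 run had 6 of 8 above 0, and 1 run on chromosome 7 and 1 on chromosome 8 each had 2 of 5 above 0. In the division fit the first 4 of these had 6 of 10, 5 of 8, 4 of 9 and 4 of 7 below 0, and the chromosome 6 run 2 of 8 above 0. Of all genes 49.6% lay below 0 without the division term. On chromosome 13 the run that holds Zfp595 and Zfp459 had these members called in opposite directions, at -1.02 and 0.91.

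Cell type markers differed between the groups as well, in recovered reads. All 6 oligodendrocyte markers lay below 0 between saline mutants and wild type, with a median log2 difference of -0.68 and none called. Their summed level was 2912 to 4689 RPM in wild type, 1480 to 3388 in saline mutants and 2480 to 4725 under UNC0642. The 8 meningeal fibroblast markers lay above 0, with a median of 0.48, none called and sums of 93.7 to 154 in wild type, 136 to 162 in saline mutants and 103 to 232 under UNC0642. The 6 excitatory neuron markers, which define the tissue, summed to 7525 to 8254 in wild type and 8330 to 8711 in saline mutants, with a median of 0.11. Medians were -0.41 over 5 oligodendrocyte precursor markers and -0.25 over 5 endothelial markers, with 1 called lower in each list. They were -0.18 over 6 microglial markers, -0.15 over 6 astrocyte markers and -0.04 over 6 interneuron markers. Among the interneuron markers Sst was called higher at 0.44 and Gad1 lower at -0.35 (limma-voom adjusted p = 0.017 and 0.035). Over all genes 5.71% were called higher and 6.71% lower. Several of the marker medians changed sign in the division fit: 0.24 for oligodendrocyte precursor, 0.29 for microglial, 0.32 for astrocyte, 0.18 for interneuron and -0.08 for excitatory neuron markers. Oligodendrocyte markers stayed at -0.67 and endothelial ones at -0.20, and the meningeal fibroblast median became 1.2. No marker of these lists was missing from the table, and their part in the members' differences was not tested. Of 3 erythrocyte and 4 choroid plexus markers that were also listed, only 1 each was measured.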

How the data were processed

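The deposited values, 1 column for each of 9 libraries, are a non-negative signal per gene that the authors call CPM. The submitters' processing notes name HTSeq, TopHat2, cutadapt and the mm9 build; the strand setting and the normalization are not given there. The labels' protocols name Trizol and stranded total RNA libraries. The design foresaw plain CPM, which the values are not. Whole reads were recovered from the signal by removing a prior of 3 reads and 1 shift for each gene between 2 sets of libraries: 100% of values came out whole within 0.02 reads, for 14444 genes. Limma-voom on these reads called 1794 genes between saline mutants and wild type.

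Members were rows whose symbol is Zfp and 3 digits, and 1 further symbol of this form is not reported here. Members, gene lists and tests were chosen with earlier results of these data known. Limma 3.58.1 (R 4.3.3) was fitted to all genes and libraries with the group as the only term, on log2(value + 0.5), a scale that understates changes of low genes, and as limma-voom with sizes from a trimmed mean of M values on the recovered reads, which also scale the RPM values. The steps were tested on simulated data: of the changes put in between saline mutants and wild type, limma-voom on reads called part of the smaller and nearly all of the larger, and limma on values adjusted like the deposited ones called none of them. Named members were the 10 of smallest deposited p in each comparison, the 10 highest and 5 lowest per kilobase, the 10 with the widest gap, and up to 3 for each role list; called members, genes with no treated or every treated library nearer 1 group, neighbour runs and pathway genes were named with their values in view. NRF1 and ZNF143 motifs were also searched in the promoters, and their shares are not reported here. Exon lengths, GC content and proteins came from GENCODE M21 by symbol. Fingers were counted in the longest open reading frame of each coding transcript, and the highest count was kept. A KRAB match needed 8 of 10 conserved residues in any of these frames. Finger number and KRAB match of a member therefore need not come from the same isoform. Alternatives were pseudocounts of 0.1 and 2, a filter on low values, only the 2 groups compared, median-of-ratios factors, a replicate block, the library division, each library left out and an adjusted p under 0.1; on the recovered reads, all but the division were added after seeing the data, with library totals. Python 3.11.15, numpy 2.4.6, pandas 2.3.3 and matplotlib 3.10.9 were used.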

Additional observations from a re-analysis of the deposited data

How the results depend on the processing

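On the deposited values 0 members were called in all 3 comparisons under every alternative run on that scale; since the adjustment compresses differences between wild type and saline mutants by construction, a steady 0 there is no sign of stability. By contrast, limma-voom on the recovered reads called 29 between saline mutants and wild type, with medians of -0.067 there and 0.047 between UNC0642 and saline mutants. In the recovered reads, those 29 became 0 with the library division as a term, 48 at an adjusted p under 0.1, and 0 to 52 with 1 library left out (5 and 9 without wild-type replicate 3 and saline mutant replicate 2); the median became -0.023 with the division. With the division as a term Zfp141 turned from -0.70 to 0.04, and the other 28 kept their sign. At least 75% of the difference was left in 10, among them Zfp810 at 0.53, Zfp688 at 0.75, Zfp276 at -0.52 and Zfp941 at 0.48. In 13 that kept their sign less than 50% was left, and the median share was 52%. The median standard error rose from 0.15 to 0.22. Treated mutants against wild type held 0 to 38 called members with 1 library left out, and the median became 0.014 with the division. The cause was not tested. Scaling by library totals moved the median between saline mutants and wild type to -0.083, with 27 called, and median-of-ratios factors to -0.072, with 29. The replicate block called 0 members on the deposited values in each comparison. In the recovered reads it called 36 between saline mutants and wild type (13.4%, with 2441 of 14444 genes). Same-numbered libraries had deviations correlated between -0.16 and 0.32, and other pairs between -0.31 and 0.20. A library matched best with its own number in 6 of 18 looks. With 3 libraries in each group, these values cannot tell whether the numbers pair the libraries. Low counts limit the scarcest members: 54 had fewer than 5 RPM.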
